A study of Mus musculus with 3 samples.

Results

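7SL RNA and the protein-coding genes of the signal recognition particle (SRP) were followed in the cytosolic RNA of mouse macrophages. The 8 genes were taken by symbol: Rn7s1 and Rn7s2, which both encode 7SL RNA, and Srp9, Srp14, Srp19, Srp54a, Srp68 and Srp72, which encode the 6 SRP proteins. All 8 were found among 81881 features of the gene tables, of which 55536 match the annotation and 22015 are nuclear protein-coding genes.

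The study holds 3 libraries of 1 group, biological replicates 1 to 3. They are ribosomal RNA-depleted total RNA from the cytosolic fraction of primary bone marrow-derived macrophages of the C57BL/6J mouse strain, a standard laboratory strain. The cells had been treated with 100 ng/ml Lipid A, the membrane anchor of bacterial endotoxin and a ligand of Toll-like receptor 4, for 12 h. They were then kept without it for 12 h and given 100 ng/ml Lipid A again for 25 min. No untreated cells, no single exposure and no nuclear fraction are analysed here, so a level below belongs to cytosol of restimulated cells and no response to Lipid A can be read from it. The labels give separate biosamples under a single donor entry, and they give neither age nor sex. An SD over the 3 libraries may therefore be technical.

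SRP is the ribonucleoprotein that takes ribosomes with a signal peptide to the endoplasmic reticulum. 7SL RNA, made by RNA polymerase III, is its scaffold: SRP9 and SRP14 bind the Alu domain and slow elongation, while SRP19, SRP54, SRP68 and SRP72 sit on the S domain. SRP54 is the GTPase that holds the signal peptide and docks on the SRP receptor, from which the nascent chain passes to the Sec61 channel. Macrophages use this route for cytokines, lysosomal enzymes and surface receptors.

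The 2 annotated 7SL genes cannot be told apart by any read within them. Rn7s1 (mm10, chr12:69159295-69159594, plus strand) and Rn7s2 (mm10, chr12:69361182-69361481, minus strand) are 300-base single-transcript misc_RNA genes. They lie 201587 bases apart on chromosome 12 and differ at 0 bases in the GENCODE M21 transcripts. The other 7SL-like gene with the highest local identity is Rn7s6 (mm10, chr6:69516339-69516629, plus strand, 291 bases). Over its first 214 bases Rn7s6 is 98.6% identical to 7SL, with 3 mismatches, while the whole-length identity is 85.2%. Gm24105 aligns over more of the RNA, with 91.7% identity over 300 aligned bases. Rn7s1 and Rn7s2 together had 4336958, 761286 and 3737326 expected counts in replicates 1, 2 and 3, against 284, 32.8 and 233 for Rn7s6. In all, 15 other annotated misc_RNA genes aligned to 7SL, and together they held 0.00689%, 0.00470% and 0.00713% of the 7SL count. In the read-based tables the same 15 held 0.0269%, 0.0374% and 0.0321%. Transcripts of other types that also align to 7SL were not counted in these sums.

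7SL RNA was the most abundant RNA listed in the gene tables. Rn7s2 ranked first and Rn7s1 second by mean TPM, the abundance per transcript that counts give once divided by length and scaled to a fixed total, followed by Rn7sk, the RNA that holds P-TEFb inactive, Rpph1, the RNA of RNase P, and Fth1, the ferritin heavy chain. Rn7s1 had 266351, 181501 and 270549 TPM in replicates 1, 2 and 3, and Rn7s2 had 269248, 181501 and 271864 TPM. The 2 genes stood at almost the same level in each library, and both were lowest in replicate 2. Rn7s1 took 49.9% ± 0.135 (SD, n = 3) of the summed 7SL count in the gene tables and exactly 50% in each library of the read-based tables. The authors' posterior SD of the Rn7s1 count was 1.70%, 2.96% and 1.44% of that count. The authors' interval bounds for the TPM of the 2 genes overlapped in each library, for instance 256390 to 274250 for Rn7s1 and 254221 to 272110 for Rn7s2 in replicate 1. Since no base separates the genes, only their sum is interpreted from here on.

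The share of the library given to 7SL depended on the quantity. By TPM the pair made up 53.6%, 36.3% and 54.2% of the abundance given to annotated and unannotated features of the gene tables in replicates 1, 2 and 3, or 48.0% ± 10.2 (SD, n = 3). By expected count it made up 7.81%, 3.57% and 8.19% of fragments. Neither is a share of all cellular RNA, since ribosomal RNA had been depleted and the labels give a size range of 250 to 400. The exact 95% binomial intervals were 7.805% to 7.819%, 3.564% to 3.580% and 8.182% to 8.198%. These intervals cover counting error only and are far narrower than the spread between libraries. A TPM value divides each count by an effective length, the number of positions at which a fragment of the library's size can start. For the 300-base 7SL that length was 89.5, 78.2 and 106 bases in the gene tables. The annotated length was thus 3.35, 3.84 and 2.83 times the effective length. For genes over 2000 bases the annotated length exceeded the effective length by only 223, 233 and 202 bases at the median. With the annotated length in place of the effective length for every gene, the 7SL share came to 34.4%, 19.0% and 36.4%, or 30.0% ± 9.5 (SD, n = 3).

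**Figure D1:**
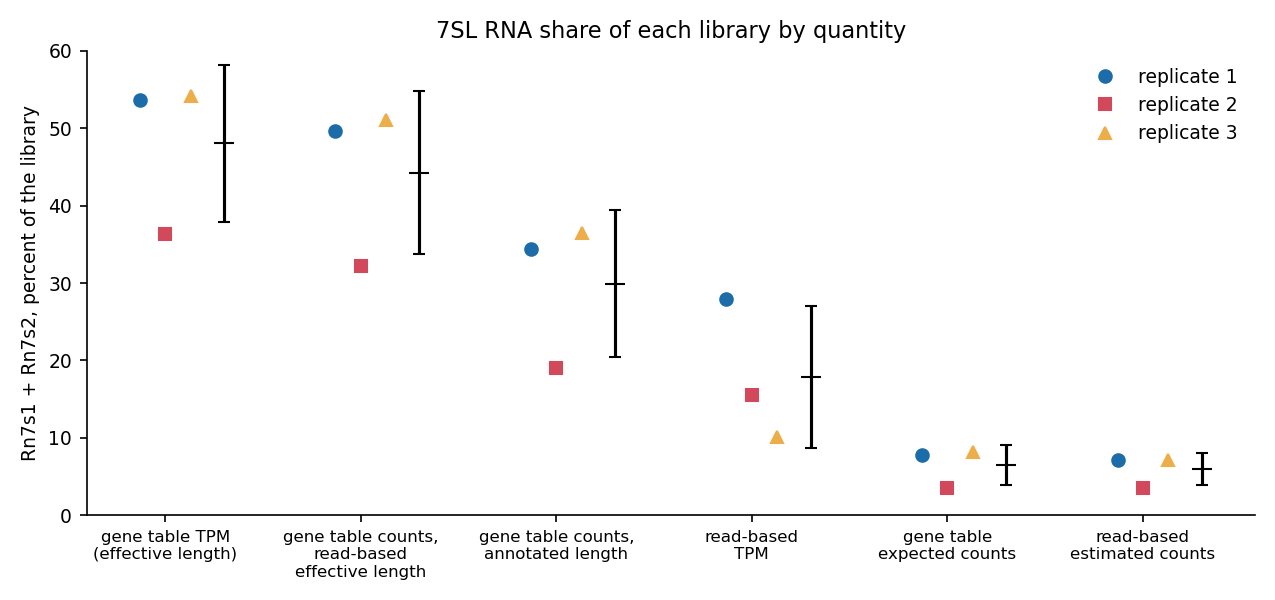
Share of each library held by Rn7s1 and Rn7s2 together, in percent, by 6 quantities; symbols are the 3 replicates, and the bar is the mean ± SD. The share by gene table TPM averages 48.0% and that by expected counts 6.52%, and replicate 2 is below replicate 1 for all 6 quantities.

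The read-based tables put 7SL lower by TPM and level with the gene tables by count. These tables were made from reads and list the same M21 transcripts. Each 7SL gene had 139821, 78208 and 50498 TPM there. The pair therefore held 28.0%, 15.6% and 10.1% of TPM, with replicate 3 lowest, whereas the gene tables had replicate 2 lowest. The gene table TPM of the pair was 1.92, 2.32 and 5.37 times the read-based TPM, with a geometric mean of 2.88. All 3 ratios exceeded 1, and the exact two-sided sign-flip test gave p = 0.25, the smallest that 3 libraries allow. In contrast, the gene table count was 0.962, 0.776 and 0.948 times the read-based count. The ratio of expected to estimated counts over expressed protein-coding genes had a median of 0.907, 0.829 and 0.915. The 7SL ratio lay above it in replicates 1 and 3 and below it in replicate 2.

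Protein-coding genes showed most of the same gap in TPM. Over expressed protein-coding genes the gene table TPM was itself 1.43, 1.90 and 4.37 times the read-based TPM at the median. A set of 5 short features, at 0 TPM in the gene tables, held 41.9%, 52.3% and 79.7% of read-based TPM in replicates 1, 2 and 3. They are Gm23935, Gm24270 and Gm24245, of 57 bases each and annotated as miRNA, and the pseudogenes Gm12895 and Gm12896, of 226 bases each. The effective length of the 57-base features in the gene tables is 0. That of Gm12895 and Gm12896 is 35.1, 26.8 and 45.9 bases there, and why they are at 0 TPM was not tested. When both tables were rescaled to 1000000 over nuclear protein-coding genes, an alternative chosen after the data were seen, 7SL was 1.32, 1.23 and 1.23 times higher in the gene tables. The read-based effective length of 7SL, 106, 100.0 and 123 bases, was longer than that of the gene tables in every library. Of the 8 genes, 0 were at least 2-fold higher in the gene tables in every library, against 2.19% of 11001 expressed genes. After the rescaling the count was again 0 of 8, against 1.53% of expressed genes.

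**Figure D2:**
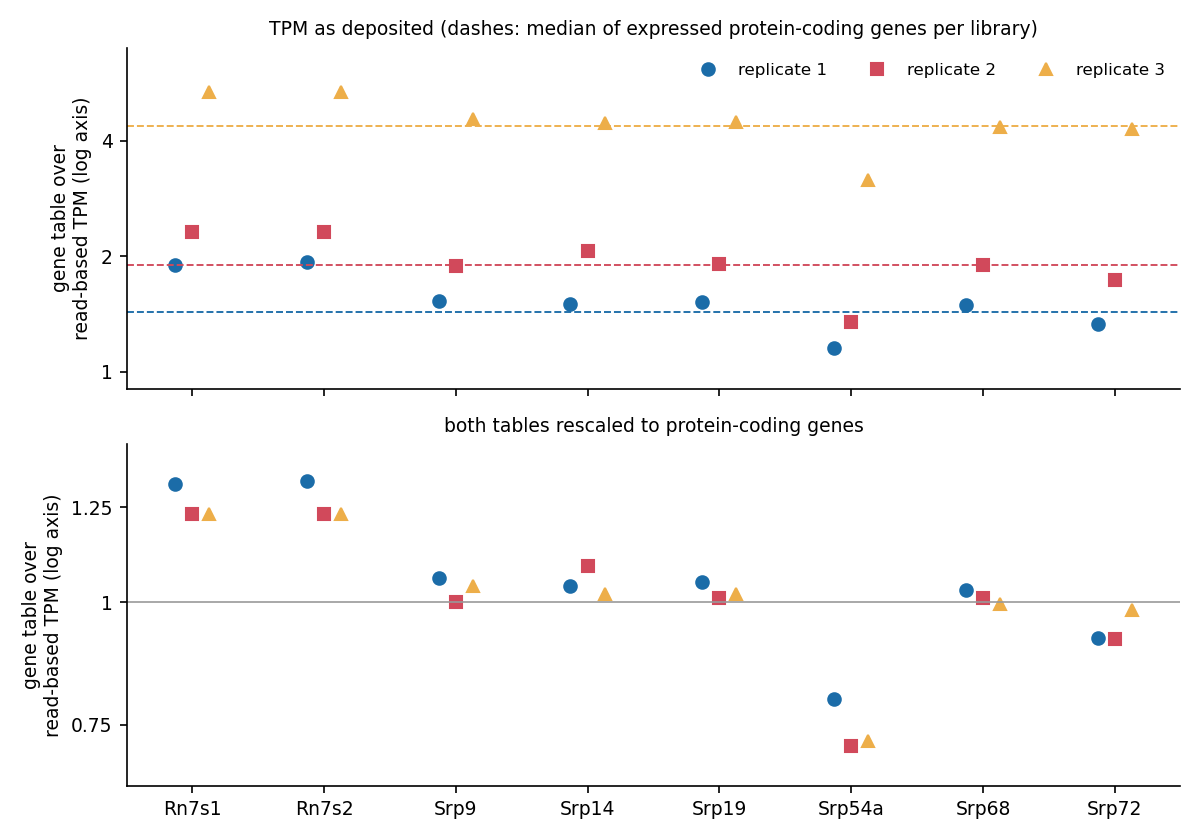
Ratio of gene table TPM to read-based TPM for each of the 8 genes, on log axes; symbols are the 3 replicates, and dashed lines are each library's median over expressed protein-coding genes. As deposited, 7SL reaches 5.37 in replicate 3, and after rescaling to protein-coding genes it lies between 1.23 and 1.33, above the 6 protein genes, while Srp54a and Srp72 lie below 1 in all 3 libraries.

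All 6 SRP protein genes were expressed, at levels far below 7SL. Each had at least 1 TPM in every library, as did 42.1% of nuclear protein-coding genes. Their mean was 25.2, 31.4 and 25.3 TPM in replicates 1, 2 and 3. The summed 7SL TPM was 21222, 11566 and 21462 times that mean. By annotated length the ratio was 7750, 3753 and 9142, and by read-based TPM it was 15686, 8882 and 16830. Replicate 2 had the lowest ratio on each of these scales. The ratio compares an RNA that is itself a subunit with mRNAs that are translated many times over, so it is no stoichiometry of the particle.

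Of the Alu-domain pair, Srp14 was higher than Srp9. Srp14 (mm10, chr2:118475850-118479711, minus strand) had 48.5, 67.3 and 52.2 TPM and was the highest SRP protein gene in every library. Its mean of 56.0 TPM lay above 89.5% of the 9604 expressed protein-coding genes. Srp9 (mm10, chr1:182124737-182132407, plus strand) had 26.2, 24.6 and 24.2 TPM, the narrowest spread of the 6 by TPM. The Srp14 to Srp9 ratio was 1.85, 2.74 and 2.15 by TPM and 0.95, 1.30 and 1.15 by expected count. The order of the partners was therefore fixed by TPM and not by count. A processed pseudogene, Gm13736, is 100.0% identical to Srp9 over 253 bases. Srp9 had 2656, 743 and 1759 expected counts, against 27.0, 0 and 16.0 for that pseudogene.

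Of the S-domain genes, Srp54a averaged 26.6 ± 9.06 TPM, Srp72 23.5 ± 3.59, Srp19 18.4 ± 1.23 and Srp68 14.3 ± 1.52 (SD, n = 3 each). Srp54a (mm10, chr12:55080262-55115367, plus strand) had 22.9, 36.9 and 19.9 TPM, with replicate 2 apart from the others. Srp72 (chr5:76974683-76999937, plus strand), whose protein joins SRP68 in a heterodimer, had 22.2, 27.5 and 20.7 TPM. Srp68 (chr11:116245166-116274217, minus strand) had 12.6, 15.1 and 15.3 TPM and was the lowest of the 6 in every library. The Srp72 to Srp68 ratio was 1.77, 1.83 and 1.35, so the heterodimer partners differed in the same direction in 3 of 3 libraries. Srp19 (chr18:34330847-34336599, plus strand), whose protein prepares the RNA for SRP54, had 19.0, 17.0 and 19.3 TPM.

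In the order of mean TPM, Srp14 stood apart from the next gene: it was 1.82 to 2.62 times Srp54a across libraries, and the values did not overlap. Srp54a, Srp9 and Srp72 followed each other without separation, since their ranges overlapped and the sign of each step differed between libraries. Srp72 was 1.07 to 1.62 times Srp19, and Srp19 was 1.13 to 1.51 times Srp68, with no overlap between the values of either pair. For these 3 separated steps the exact two-sided sign-flip p was 0.25, the smallest that 3 libraries allow. The genes were ordered by these same values, so the p cannot serve as support for the order. Across neighbours in this order, the read-based tables gave 3 of 3 libraries in the same direction for Srp14 over Srp54a, Srp54a over Srp9, Srp72 over Srp19 and Srp19 over Srp68.

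**Figure D3:**
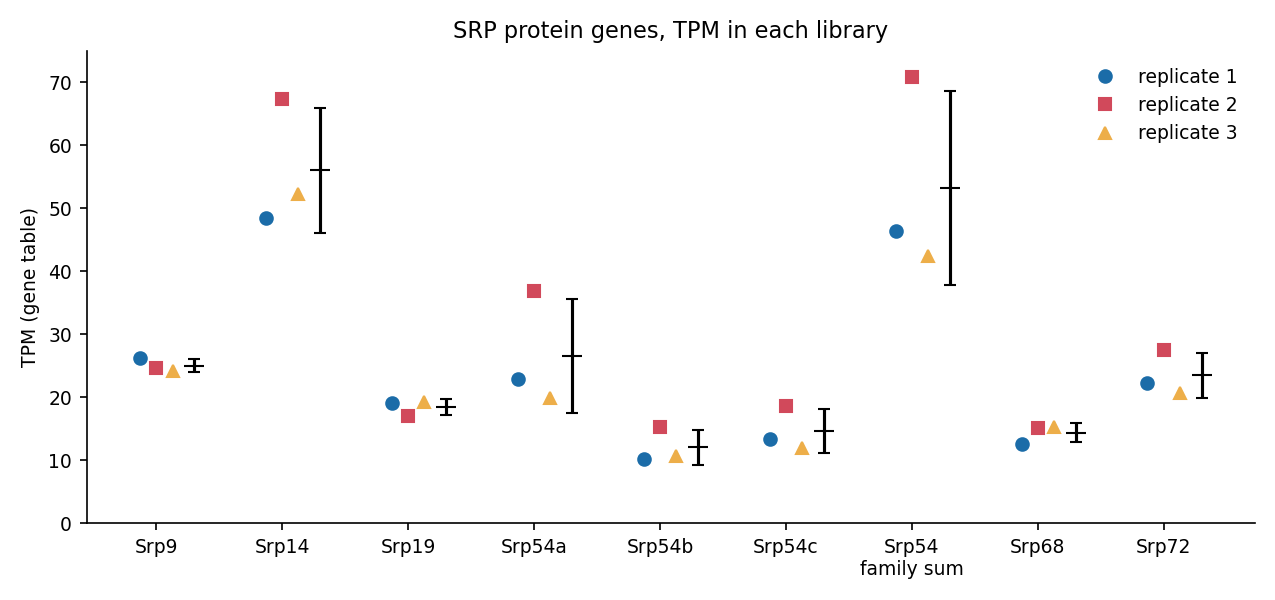
Gene table TPM of the SRP protein genes, of the near-copies Srp54b and Srp54c, and of the summed Srp54 family; symbols are the 3 replicates, and the bar is the mean ± SD. Srp14 is highest among the 6 members at 56.0 TPM on average, and the summed Srp54 family reaches 53.2 TPM.

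Srp54a is 1 of 3 near-identical genes that follow each other on chromosome 12, and its level depended on how reads were split. The 1515-base transcript Srp54a-201 is 100.0% identical to a stretch of Srp54b-201 over its whole length. It differs from Srp54c-201 at 6 bases, all in the coding sequence: T501C, T945C, G946A, T965G, A1197T and G1249A. Positions count from 1 at the 5′ end of Srp54a-201, with the Srp54a base first and the Srp54c base last. Within Srp54a-201 a read can separate Srp54a from Srp54c only at these sites, and bases outside that transcript were not compared. The stretch around the first site (mm10, chr12:55099918-55099938, plus strand) is printed as an example, with the differing base in capitals.
Srp54a: ctgaaatggaTcctgtcatca
Srp54c: ctgaaatggaCcctgtcatca
Srp54b had 10.2, 15.3 and 10.6 TPM and Srp54c 13.3, 18.6 and 11.9 TPM. The 3 genes together had 46.4, 70.8 and 42.4 TPM, or 53.2 ± 15.3 (SD, n = 3). Srp54a took 44.8%, 41.3% and 41.5% of the family's expected counts in the gene tables and 50%, 48.6% and 48.0% of its estimated counts in the read-based tables. The gene table count of Srp54a was 0.821, 0.704 and 0.803 times its read-based count, the lowest ratio of the 8 genes. For the family sum the ratio was 0.917, 0.828 and 0.929, next to the median of 0.907, 0.829 and 0.915 over expressed protein-coding genes. By count, the family total was thus alike in both kinds of table, and the division among its genes was not. With both tables rescaled to protein-coding genes, the family's gene table TPM was 0.880, 0.806 and 0.845 times its read-based TPM.

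The annotation lists 33 transcripts for the 6 SRP protein genes, and in each gene a single protein-coding transcript led. Srp68-201 held 99.7%, 100.0% and 100.0% of its gene's TPM, and Srp14-201 held 99.9%, 88.3% and 100.0%. The rest of Srp14 in replicate 2 went to the 542-base Srp14-204, at 11.5% there and at 0 in both other libraries. In the read-based table of replicate 2 that transcript was at 0, so the tables did not give the same result for it. Srp9-201 held 91.6%, 95.3% and 90.5%, Srp19-201 held 86.2%, 99.6% and 96.0%, and Srp72-201 held 88.8%, 99.7% and 94.3%. The read-based tables gave Srp72-201 less, at 67.5%, 79.7% and 82.6%. Srp72-202 held 0.320%, 0 and 0.990% in the gene tables, against 15.1%, 19.7% and 12.5% in the read-based tables. Srp54a-201 held 74.6%, 60.4% and 70.4%, and the longer Srp54a-202 held 18.4%, 16.2% and 20.7%. The 472-base Srp54a-204 held 21.1% in replicate 2 and was at 0 in replicates 1 and 3. In the read-based tables its share was 25.6% in replicate 2, against 3.15% in replicate 1 and 0 in replicate 3. That transcript alone accounted for 7.80 of the 36.9 TPM of Srp54a in replicate 2.

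Transcripts with a retained intron were most abundant in replicate 1. They are annotated for 4 of the 6 genes. For Srp72 they held 10.9%, 0.291% and 4.74% of TPM in replicates 1, 2 and 3. For Srp54a they held 5.06%, 1.98% and 0.905%, for Srp9 1.03%, 0.651% and 0.124%, and for Srp19 1.26%, 0.412% and 0.311%. Replicate 1 was highest in each of the 4 genes in both kinds of table. Over all protein-coding genes with at least 1 TPM and such a transcript, the median share was 4.86%, 1.05% and 1.05%, again highest in replicate 1. As a share of the summed TPM of all protein-coding genes, such transcripts held 4.48%, 4.09% and 3.19%, a smaller difference between libraries. Nuclear RNAs were also highest in replicate 1. Malat1, a nuclear speckle RNA, had 8329, 3480 and 1444 protein-coding CPM, which is the count per 1000000 counts of nuclear protein-coding genes. Neat1, the paraspeckle RNA, had 924, 212 and 152, and Xist, the RNA of the inactive X chromosome, had 803, 42.3 and 23.1. The summed level of the 6 nuclear RNAs listed was 10163, 3743 and 1625 protein-coding CPM, with Kcnq1ot1 below 1 TPM and Meg3 at 0 counts in each gene table. The part that nuclear RNA has in the retained-intron shares was not tested.

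Relative to protein-coding RNA, 7SL was lowest in replicate 2. Srp9, Srp14, Srp19 and Srp68 were also lowest there, with smaller ratios between libraries. The pair had 90478, 38894 and 92158 protein-coding CPM. Replicate 2 lay apart from both others, with a highest-to-lowest ratio of 2.37, and without it the ratio was 1.02. With edgeR's trimmed mean of M-values the ratio was 2.46, with DESeq2 size factors 2.48, and with TPM as deposited 1.49. Of the 9604 expressed protein-coding genes, 97.6% had a smaller ratio than 7SL, and their median was 1.27. None of the 6 SRP protein genes reached a 2-fold ratio (0 of 6), against 4.46% of expressed protein-coding genes. Srp19 came nearest, with 23.8, 15.2 and 20.9 protein-coding CPM and a ratio of 1.56. Srp9 had 55.4, 37.9 and 43.4 and a ratio of 1.46. Srp14, by contrast, had 52.7, 49.4 and 49.9, a ratio of 1.07. Srp54a and Srp72 were lowest in replicate 3: Srp72 had 132, 128 and 108. Srp68 had 54.4, 47.4 and 56.9.

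**Figure D4:**
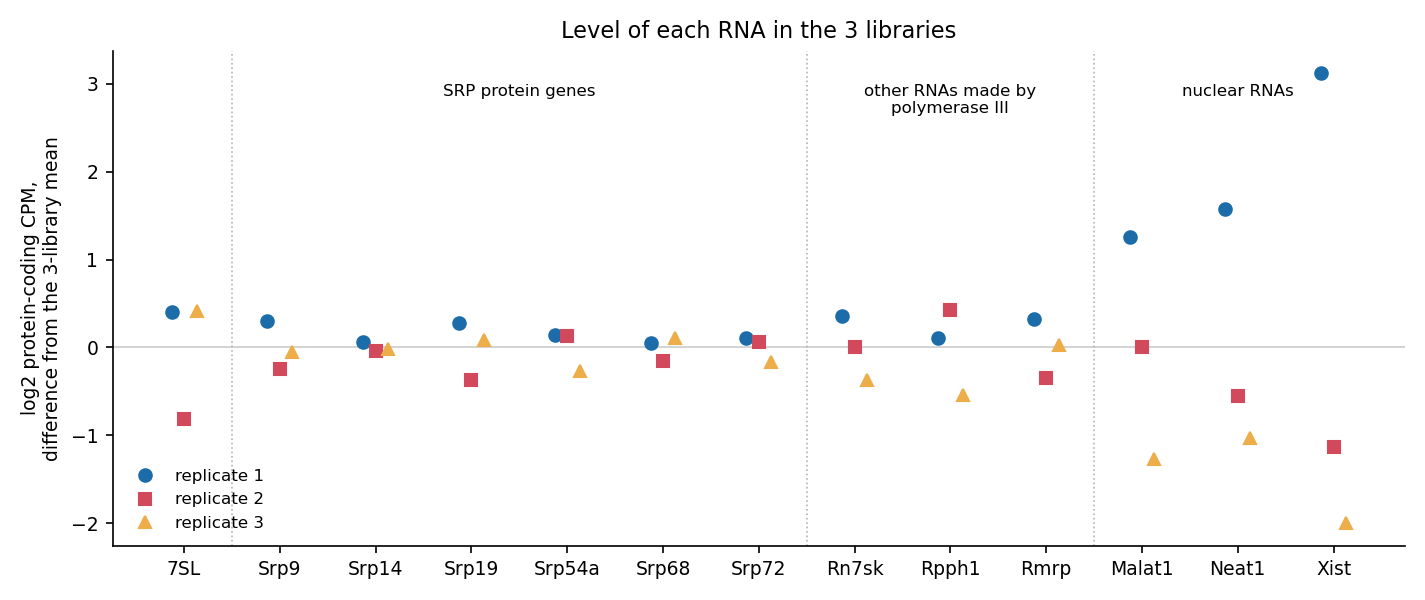
Level of 7SL, of the SRP protein genes, of other RNAs made by polymerase III and of nuclear RNAs in each library, as the log2 protein-coding CPM minus its mean over the 3 libraries. 7SL lies at -0.82 in replicate 2 and near 0.40 in both other libraries, while Malat1, Neat1 and Xist are highest in replicate 1.

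Other RNAs made by RNA polymerase III differed among themselves in where they were lowest. Rn7sk had 17578, 13712 and 10583 protein-coding CPM and was lowest in replicate 3. Rpph1 had 9099, 11336 and 5805 and was highest in replicate 2, where 7SL was lowest. Rmrp, the RNA of RNase MRP, had 1352, 850.0 and 1108 and was lowest in replicate 2 like 7SL. So was Vaultrc5, a vault RNA, with 0.772, 0.511 and 1.21 and a highest-to-lowest ratio of 2.36 on only 37.0, 10 and 49.0 expected counts. The 7SL count was 5.15, 2.84 and 8.71 times that of Rn7sk, 9.94, 3.43 and 15.9 times that of Rpph1 and 66.9, 45.8 and 83.2 times that of Rmrp. By TPM the ratio of 7SL to Rn7sk was 6.69, 3.81 and 11.0. The Y RNAs Rny1 and Rny3 were at 0 counts in the gene tables, where their effective length is 0. In the read-based tables they had 20, 7 and 48.0 and 111, 32.0 and 130.0 estimated counts.

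The level in replicate 2 moved with transcript length. Among expressed protein-coding genes with a mean transcript length under 600 bases, 71.6% of 176 were lowest in replicate 2. The share was 59.8% from 600 to 1000 bases, 46.1% from 1000 to 2000, 30.8% from 2000 to 4000 and 16.9% at 4000 bases or more. The median difference of replicate 2 from the mean of the 3 libraries was -0.27 on the log2 scale in the shortest class and 0.06 in the longest. The 300-base 7SL stood at -0.82, the 884-base Srp19 at -0.37 and the 1340-base Srp9 at -0.25, below the medians of their classes. The longer Srp72 and Srp54a stood at 0.06 and 0.13. Srp14, of 788 bases, stood at -0.04, above its class median of -0.15, and Srp68, of 2524 bases, at -0.16, below its class median of 0. Length did not order the short RNAs, however: Rn7sk, of 331 bases, stood at 0.01 and Rpph1, of 319 bases, at 0.43. Replicate 2 was also the library with the fewest counts. The part that length, depth or fragment size has in the 7SL difference was not tested.

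**Figure D5:**
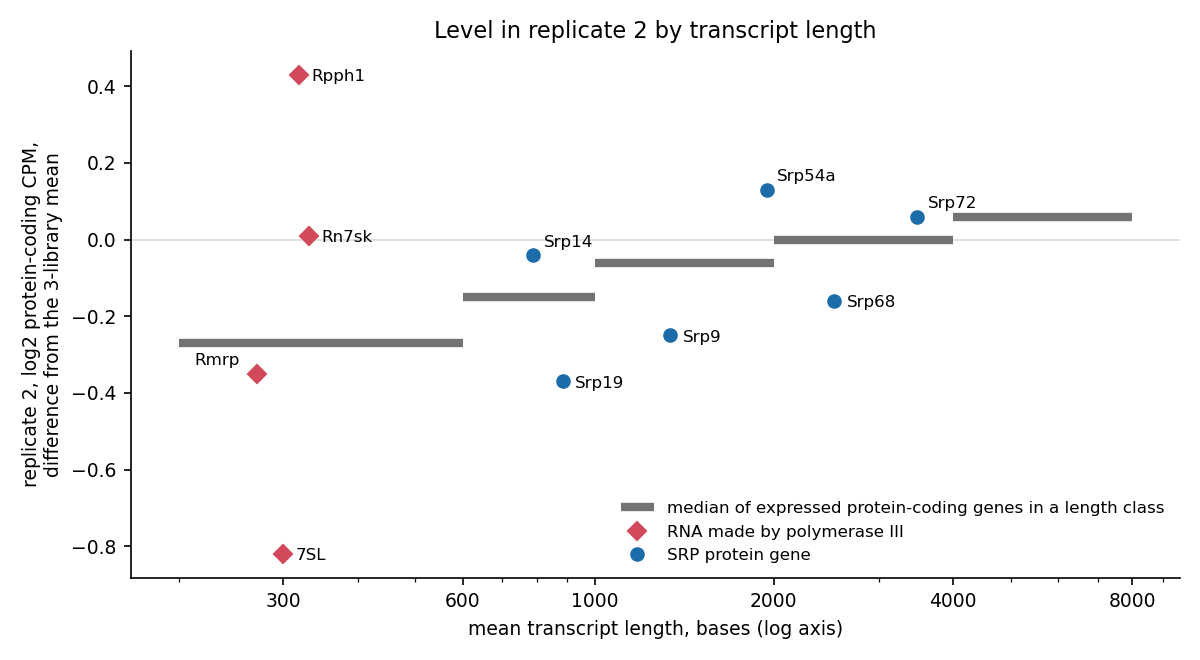
Log2 protein-coding CPM in replicate 2 minus the mean of the 3 libraries, against mean transcript length on a log axis; grey bars are medians of expressed protein-coding genes by length class, with the open-ended classes drawn to the plotted limits. The median is -0.27 in the shortest class and 0.06 in the longest, and 7SL lies at -0.82.

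The 5 genes whose 3 values were most like those of 7SL were Ndufa1, Rpl27a, Oxld1, Gm6472 and Gm20628, out of 10141 candidates. Likeness was the root mean square difference of centred log2 protein-coding CPM, which was 0.0185 for Ndufa1, a subunit of respiratory complex I, and 0.0460 for Gm20628. It was 0.333 for Srp19, the closest SRP protein gene, and 0.695 for Srp54a, the farthest, against a median of 0.594 over the candidates. Ndufa1 had 26.7, 11.1 and 26.7 protein-coding CPM, and Rpl27a, a protein of the large ribosomal subunit, had 186, 82.4 and 183. Since 35.0% of the candidates were lowest in replicate 2, and each profile has only 3 points, the list is a description.

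Genes of protein targeting, translocation and early processing at the endoplasmic reticulum were expressed as well. Of 43 listed symbols, 40 were found, and the missing Srpra is another name of Srpr, which is among the 40. The list includes 9 found genes that bind nascent chains or serve SRP-independent routes. The level reached 1 TPM or more in each library of the gene tables for all 40, against 42.1% of nuclear protein-coding genes. By read-based TPM, 37 of the 40 did so. Their median was 27.2, 36.0 and 28.6 TPM, and the median of mean TPM over expressed protein-coding genes was 9.38. Of the SRP receptor, Srpr, the subunit that meets SRP54, had 27.4, 37.8 and 30.0 TPM. Srprb, the membrane anchor, had 8.44, 10.7 and 7.60 TPM. Srpr was 3.25, 3.55 and 3.95 times Srprb, with no overlap. Srpr thus stood near the SRP proteins and Srprb below all 6 of them in every library.

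In the Sec61 translocon list, Tram1, Sec61b and Sec61a1 were highest, at 42.1 ± 8.5, 39.8 ± 8.40 and 36.8 ± 2.81 TPM (SD, n = 3 each). Sec61g was lower, at 5.36 ± 0.998, although Sec61 alpha, beta and gamma form a single channel. In the translocon-associated protein complex, Ssr3, Ssr2 and Ssr4 had 67.5 ± 14.7, 45.0 ± 11.4 and 33.7 ± 3.60 TPM. Among signal peptidase genes, Spcs1, Spcs2 and Sec11c had 69.8 ± 10.6, 47.7 ± 11.9 and 35.8 ± 4.03 TPM. Sec11c, a catalytic subunit, had 51.6, 25.0 and 33.2 protein-coding CPM. It was the 1 gene of the 40 with a 2-fold ratio between libraries, against 4.46% of expressed protein-coding genes. Among oligosaccharyltransferase genes, Stt3a, the catalytic subunit, had 61.9 ± 27.0, Rpn2 56.1 ± 9.20 and Ost4 53.5 ± 24.8 TPM. The nascent chain binders Naca and Btf3, which form the nascent polypeptide-associated complex, were the highest of the 40 at 130.0 ± 6.64 and 119 ± 9.12 TPM. Bag6, of the route for tail-anchored proteins, followed in its list with 48.7 ± 6.67 TPM.

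All 11 genes listed around 7SL biogenesis had at least 1 TPM in every library of the gene tables, as did 42.1% of nuclear protein-coding genes. By read-based TPM, 9 of the 11 reached that level in every library. In replicate 3, Brf1 had only 0.830 and Trove2 0.646 read-based TPM. The list includes general binders of small RNA such as Trove2 and the ubiquitin ligase Trim21. Ssb, the La protein that binds new polymerase III transcripts, had 33.4, 45.7 and 32.4 TPM. Xpo1, an exportin, had 29.2, 42.0 and 33.1 TPM, and Trim21, next in the list by mean level, had 20.3, 31.4 and 27.6 TPM. The polymerase III subunit genes Polr3a and Polr3b were lower, at 4.98 ± 0.652 and 4.95 ± 1.27 TPM. By protein-coding CPM the highest-to-lowest ratio was 1.22 for Ssb and 1.07 for Polr3a, both lowest in replicate 3. It was 1.69 for Brf1, a polymerase III initiation factor, which had 15.9, 9.40 and 11.0 and was lowest in replicate 2. Brf1 was the only gene of the 11 lowest there, against 35.0% of the 10141 candidates compared with 7SL.

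Macrophage markers were abundant and those of other cells nearly absent. The 8 macrophage genes listed had a summed 4924 to 7591 TPM, led by Lyz2, Cd68 and Adgre1. Of the markers of other blood and stromal cells, Siglech, Mpo, Cd3e, Hbb-bs, Cd79a, Col1a1, Ncr1 and Klrb1c were detected in at least 1 library, with Siglech highest at 0.127 TPM on average. Cd3g and Ly6g were at 0 counts in the gene tables, and Pdgfra was at 0 TPM with 2.00 expected counts in replicate 1. The gene tables held 55517261, 21311556 and 45635014 expected counts in replicates 1, 2 and 3, and the SRP protein genes rested on 298 to 6333 of them per gene and library.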

How the data were processed

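The deposited files cover 3 libraries of total RNA, with a gene table, a transcript table and a read-based transcript table for each. The authors' gene and transcript tables give expected counts, TPM and FPKM per feature, with posterior means, SDs and credible bounds (percent and score columns among them), made from alignments to the transcriptome per the files' descriptions. The authors' read-based tables give estimated counts and TPM per transcript. The build is mm10 with GENCODE M21, per the labels and the files' descriptions, while which programs made the tables is not given in the sources used here. FPKM and score columns of the deposited tables were not used, and the isoform percent column is the authors'.

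Genes were matched by symbol through GENCODE M21, and read-based values were summed per gene. Protein-coding CPM is 1000000 times the count over the summed count of nuclear protein-coding genes. Expressed means a mean of at least 1 TPM. Table differences used log2(TPM + 0.1) on genes with at least 1 TPM on average in either table. Counts were rounded for edgeR 4.0.16 and DESeq2 1.42.0 scaling factors in R 4.3.3, which served only as alternatives since 1 group allows no differential test. Copies were found with blastn 2.17.0 (E at most 1e-10) and whole-length alignment with Biopython 1.88, and tables and plots were made in Python 3.11.15 (pandas 2.3.3, matplotlib 3.10.9, numpy 2.4.6, scipy 1.17.1). Steps across genes were tested on simulated data. The gene tables held 21311556 to 55517261 expected counts per library. In replicates 1, 2 and 3, 3 counts were worth 0.0540, 0.141 and 0.0657 per 1000000 counts of all features. The members and gene lists were chosen with earlier results of these data known. Named genes are mainly the 8 members and near-copies, the 3 highest of each list, list genes under 1 TPM on average, and the 5 most like 7SL. Some genes were named outside these rules, among them Sec61g, Vaultrc5, Polr3a, Polr3b, Brf1 and Trove2. Alternatives changed the length, table, scale, threshold and libraries. Some markers and sequences are not reported here.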

Additional observations from a re-analysis of the deposited data

How the results depend on the processing

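No paired analysis was possible because the study holds 1 group of 3 libraries. Of 66 alternatives for 10 results, 15 were counted as moving the value beyond its spread, or a count or ratio beyond 1.5 times. A direction was reversed by 0 of them. The ratio of gene table to read-based TPM of 7SL, 2.88, kept its direction and was left out of the 15. It still changed by more than 1.5 times, to 1.82 with annotated length and 1.26 with both tables rescaled to protein-coding genes. The 7SL share of TPM came to 30.0% with annotated length and 17.9% in the read-based tables. The Rn7s1 share of the 7SL count was 50.1% from posterior means. 7SL over the mean of the SRP protein genes was 6882 with annotated length. The mean TPM of those genes was 13.8 in the read-based tables, 52.9 without 7SL in the scale, 78.5 rescaled to protein-coding genes, 23.0 as a median and 31.7 with the Srp54 family summed, the last chosen after seeing the data. The ratio of 7SL between libraries was 1.49 by TPM, and between 1.02 and 2.37 with a library left out: without replicate 2 it was 1.02. Genes differing 2-fold between tables numbered 547, 261 with a pseudocount of 1, 152 at 10 TPM or more, and 730 to 2257 with a library left out, the highest without replicate 1; without replicate 3 there were 829. Ranges with a library left out were 44.9% to 53.9% for the TPM share, 5.69% to 8.0% for the count share, 2.11 to 3.53 for the ratio between tables, 16394 to 21342 for 7SL over the SRP protein mean and 25.3 to 28.3 TPM for that mean. The causes were not tested.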
